A study of Mus musculus with 412 samples.

Results

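The acetylcholine receptor genes of mouse colonic sensory neurons were described in single cells: 8 subunits of nicotinic receptors (Chrna3, Chrna4, Chrna5, Chrna6, Chrna7, Chrnb2, Chrnb3 and Chrnb4) and the muscarinic receptors Chrm2 and Chrm4. They were found in the expression table by their Ensembl identifiers, and all 10 had a row among 45513 genes. The neurons came from C57BL/6J mice with no genetic change or treatment in the labels. They carried Fast Blue, a retrograde tracer that had been injected into the wall of the colon 3 to 10 days before the dorsal root ganglia (DRG) were dissociated. Thoracolumbar (TL) and lumbosacral (LS) DRG were cultured apart, and single Fast Blue-positive cells were picked by hand and sequenced by Smart-seq2 on 6 library plates. The table held 325 neurons, 167 TL and 158 LS, of the 399 that the labels list, and 13 bath samples were not analysed here. Per the study, cells of low quality had been filtered out to reach 325. Plates 2 to 6 held both segments, and the 5 neurons of plate 1 were TL. The labels tie no neuron to an animal, so each segment counted as 1 sample and no difference between segments or neuron classes was tested. Spreads over neurons and over plates are given in its place, and segment, culture and animal cannot be told apart.

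Nicotinic receptors are cation channels made of 5 subunits that open when acetylcholine or nicotine binds. Alpha3 with beta4 forms the main receptor of autonomic ganglia, alpha4 with beta2 is the main high-affinity receptor of the brain, and alpha7 can form a channel by itself. Alpha5 and beta3 are accessory subunits that join a receptor without making the agonist site, and alpha6 usually assembles with beta2 or beta4 and often with beta3. M2 and M4, the products of Chrm2 and Chrm4, are G protein-coupled receptors that signal through Gi and Go proteins and dampen excitability. Sensory neurons of the gut meet acetylcholine from enteric neurons, from parasympathetic fibres and from some cells of the epithelium.

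The genes of the alpha3, beta4 and alpha5 subunits lie side by side on chromosome 9 (GRCm38). Chrna5 (ENSMUSG00000035594) spans 54980880 to 55007779 on the plus strand, Chrna3 (ENSMUSG00000032303) spans 55010111 to 55026562 on the minus strand, and Chrnb4 (ENSMUSG00000035200) spans 55028154 to 55048779 on the minus strand. Chrnb3 (ENSMUSG00000031492, 27368711 to 27399730, plus strand) and Chrna6 (ENSMUSG00000031491, 27403212 to 27413944, minus strand) are neighbours on chromosome 8. The other genes stand apart, Chrna4 (ENSMUSG00000027577) and Chrm4 (ENSMUSG00000040495) on chromosome 2, Chrnb2 (ENSMUSG00000027950) on 3, Chrm2 (ENSMUSG00000045613) on 6 and Chrna7 (ENSMUSG00000030525) on 7. Chrnb2 overlaps Adar, Chrnb4 overlaps Gm47877 and Chrm2 overlaps 9330158H04Rik on opposite strands, and Chrna7 overlaps Gm44741 on its own strand. Smart-seq2 reads carry no strand, so reads of the shared bases cannot be told apart. The bases before the start sites of Chrna3 and Chrna5 are shown because these neighbours were the member with the highest mean and a member that no neuron had at a level of 10. RefSeq promoter windows (GRCm38.p6) were found for 8 of the 10 genes, and the 250 bases before the start are chr9:55026563-55026812 on the minus strand for Chrna3 and chr9:54980630-54980879 on the plus strand for Chrna5. Capitals mark GGGCGG on either strand, the core of the GC box.
Chrna3: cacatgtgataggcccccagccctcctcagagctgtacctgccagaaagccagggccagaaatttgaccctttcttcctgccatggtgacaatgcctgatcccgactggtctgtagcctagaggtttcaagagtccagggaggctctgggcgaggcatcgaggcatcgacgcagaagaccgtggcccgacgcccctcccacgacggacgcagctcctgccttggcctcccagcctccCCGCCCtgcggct
Chrna5: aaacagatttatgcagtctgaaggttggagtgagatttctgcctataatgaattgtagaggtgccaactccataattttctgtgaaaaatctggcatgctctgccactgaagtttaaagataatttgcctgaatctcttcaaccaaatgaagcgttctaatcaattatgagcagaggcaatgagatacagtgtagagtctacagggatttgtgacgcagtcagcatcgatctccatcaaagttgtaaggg
The Chrna3 window was 63.2% G and C and the Chrna5 window 40.0%, against a median of 52.4% over 32851 promoter windows of the same length. Searched on both strands, GGGCGG occurred 1 time in the Chrna3 window, starting 13 bases before the start on the opposite strand, and not in the Chrna5 window. It occurred in 32.7% of all windows. CCAAT (33.8% of all windows), TATAAA (12.4%) and CAGCTG (13%) occurred in neither window, which says only that these letters are absent from these bases.

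The level of a gene in a neuron is 2 to the power of the deposited value, minus 1, rescaled to sum to 1000000 per neuron. It is scaled by gene length, so levels of different genes can be set side by side. A level of 10 or more was counted as presence of the gene, which in single neurons stood for between 6 reads (Chrna6, Chrm4) and 73 reads (Chrna4) at the least. Each share of neurons has a 95% interval (exact, Clopper-Pearson) for counting error alone. Over all 325 neurons Chrna3 had the highest mean level of the 10 genes, 274 ± 340 (SD over neurons), followed by Chrnb4 at 219 ± 188, Chrna6 at 113.5 ± 115.9 and Chrnb3 at 77.3 ± 100.2. Chrnb2 averaged 26.7 ± 16.4, Chrna7 12.9 ± 53.4, Chrm2 11.4 ± 14.9 and Chrm4 4.07 ± 6.05. Chrna5, at 0.731 ± 1.57, and Chrna4, at 0.632 ± 2.37, came last. Neighbouring means in this order differed by less than the SD of the more variable gene. The most widespread was Chrnb2, at 10 or more in 284 of 325 neurons (87.4%), with a median level of 25.5 and a highest of 107. At least 1 nicotinic subunit gene was at 10 or more in 319 neurons (98.2%), and at least 1 of the 2 muscarinic genes in 169.

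**Figure D1:**
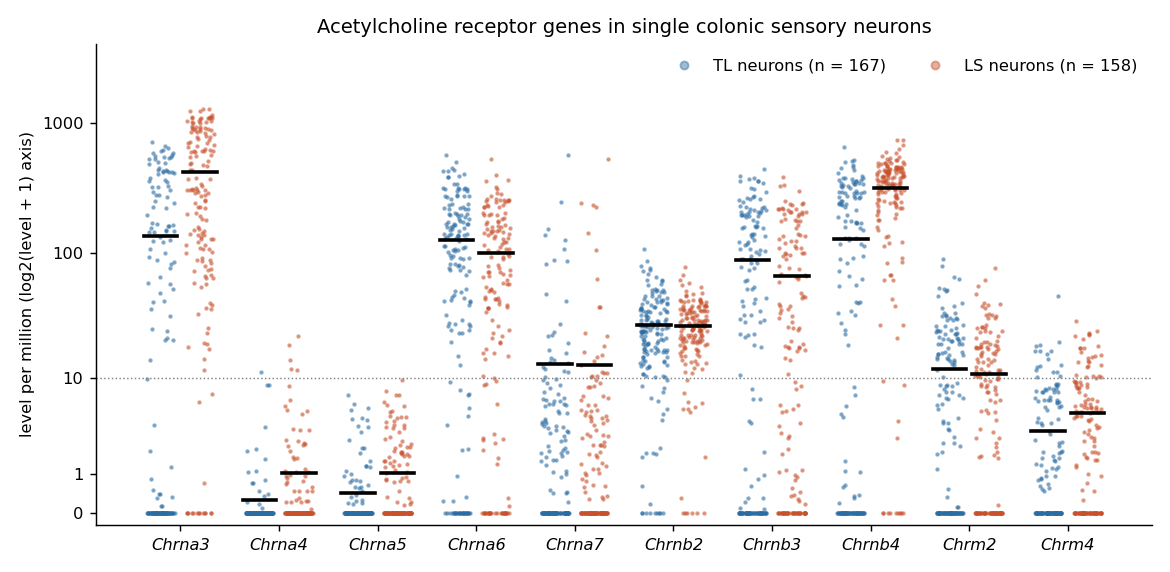
Level (rescaled to 1000000 per neuron) of the 10 receptor genes in each TL (blue) and LS (orange) neuron, on a log2(level + 1) axis. Each point is 1 neuron, black bars are means over neurons and the dotted line is a level of 10. Chrna3 and Chrnb4 sit at 0 in many TL neurons and above 100 in most LS neurons, while Chrnb2 forms 1 narrow band in both segments.

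Chrna3 and Chrnb4, the subunits of the ganglionic receptor, were the members that set LS apart from TL neurons. Chrna3 ranged from 0 to 723 in TL neurons, with a median of 1.99, and from 0 to 1295 in LS neurons, with a median of 289.5. It was at 10 or more in 81 of 167 TL neurons (48.5%, interval 40.7% to 56.4%) and in 142 of 158 LS neurons (89.9%, 84.1% to 94.1%). Its mean level was 135 in TL and 422 in LS neurons, a ratio of 3.13. The ranges overlap, but 41 LS neurons lay above the highest TL neuron. Chrnb4 ranged from 0 to 658 (median 34.0) in TL and from 0 to 749 (median 339) in LS neurons. It was at 10 or more in 89 TL neurons (53.3%, 45.4% to 61.0%) and in 145 LS neurons (91.8%, 86.3% to 95.6%), with means of 128 and 315. With every neuron thinned to 400000 reads, 4 or more reads of Chrna3 were found in 49.1% of TL and 89.2% of LS neurons, and of Chrnb4 in 54.5% and 93.0%.

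The direction was the same on each of the 5 plates with both segments. Mean Chrna3 in plates 2 to 6 was 308, 505, 514, 440.1 and 322 in LS neurons, against 157, 118, 148, 110.3 and 153 in TL neurons. Mean Chrnb4 in the same plates was 284, 356, 335, 365 and 238 in LS and 154, 108, 159, 104 and 128 in TL neurons. For both genes the lowest LS plate was above the highest TL plate. A gene was called where its mean differed at least 2-fold, as a ratio of mean level + 1, in the same direction on all 5 plates. Chrna3 (log2 ratio 1.64, between 0.96 and 2.09 by plate) and Chrnb4 (1.29, between 0.88 and 1.81) were the 2 of 10 members called higher in LS neurons, where 2.58% of 16184 genes were. None of the 10 was called higher in TL neurons, where 2.07% of genes were. The median log2 ratio over the 10 members was 0.23, against 0.05 over all genes with a mean of at least 1.

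The other 8 genes were not called between segments. Chrna6 averaged 127 in TL and 99.5 in LS neurons and was at 10 or more in 74.9% and 74.7%. Its neighbour Chrnb3 averaged 87.9 and 66.0, present in 56.9% and 55.7%, with a higher TL mean on 4 of 5 plates. Chrnb2, the partner of alpha4 and alpha6 subunits, averaged 26.9 in TL and 26.6 in LS neurons (85.0% and 89.9%). Chrna4 and Chrna5 were higher in LS on all 5 plates, with means of 0.264 in TL and 1.02 in LS for Chrna4 and of 0.433 and 1.04 for Chrna5. The ratios of these low means were 3.87 and 2.42, and both genes were called with a pseudocount of 0.1 in place of 1. Chrna4 was at 10 or more in 1 TL and 5 LS neurons. Chrna5 was at 10 or more in 0 of 325 neurons, which allows a share of up to 0.923% when a count of 0 is read as at most 3 and of up to 1.13% by the exact interval, although 100 neurons held at least 1 of its reads. Chrm4 was higher in LS on all 5 plates, with means of 3.28 and 4.91 and shares of 10.2% (6.04% to 15.8%) and 17.7% (12.1% to 24.6%), whose intervals overlap. Chrm2, with means of 12 and 10.8, and Chrna7, with means of 13.0 and 12.8, had no common direction over plates.

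Colonic afferents were then divided by 2 genes: Gfra3, which encodes the receptor for artemin and marks peptidergic nociceptors, and Piezo2, which encodes a mechanically gated channel. Counting both genes at a level of 10, 158 neurons had Gfra3 alone (82 TL, 76 LS), 120 had Piezo2 alone (55 TL, 65 LS), 25 had both (18 TL, 7 LS) and 22 had neither (12 TL, 10 LS). The neurons nearest the limit had Gfra3 at 11 and 9.63 and Piezo2 at 10.9 and 9.99. Below, Gfra3 neurons and Piezo2 neurons are those with 1 of the genes and not the other.

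Among Piezo2 neurons Chrna3 was frequent in LS and rare in TL. Chrna3 in TL Piezo2 neurons ranged from 0 to 324 with a median of 0, and 47 of the 55 neurons were below a level of 1. In LS Piezo2 neurons it ranged from 0 to 1295 with a median of 719, and 57 of 65 were at 10 or more (87.7%, 77.2% to 94.5%), against 6 of 55 in TL (10.9%, 4.11% to 22.3%). The means were 644 ± 438 and 14.9 ± 55.9 (SD over neurons), a ratio of 43.4. In Gfra3 neurons the means were 271 ± 249 in LS and 249 ± 216 in TL, a ratio of 1.09, with LS higher on 3 of 5 plates. Chrna3 was at 10 or more in 94.7% (87.1% to 98.6%) of LS and 81.7% (71.6% to 89.4%) of TL Gfra3 neurons. In the small sets with both genes the means were 262 in 7 LS and 69.2 in 18 TL neurons, and with neither gene 235 in 10 LS and 0.0706 in 12 TL neurons. The medians in the same order were 38.75, 1.96, 58.5 and 0, so a few high neurons carried these means. Neurons with neither gene had a median of 9569 (LS) and 9199 (TL) genes above 0, against 13975 and 13497 over all neurons of the segment.

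Chrnb4 was also frequent in LS and rare in TL Piezo2 neurons, with a lower ceiling. Unlike Chrna3, it had near level means in the Gfra3 and Piezo2 neurons of LS. Its means were 337 ± 183 in LS Piezo2, 15.7 ± 49.4 in TL Piezo2, 326 ± 139.5 in LS Gfra3 and 230.1 ± 154 in TL Gfra3 neurons. It was at 10 or more in 58 of 65, 9 of 55, 75 of 76 and 71 of 82 of them. Within Piezo2 neurons the LS mean was 21.5 times the TL mean, and within Gfra3 neurons 1.42 times, with LS higher on all 5 plates in both.

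**Figure D2:**
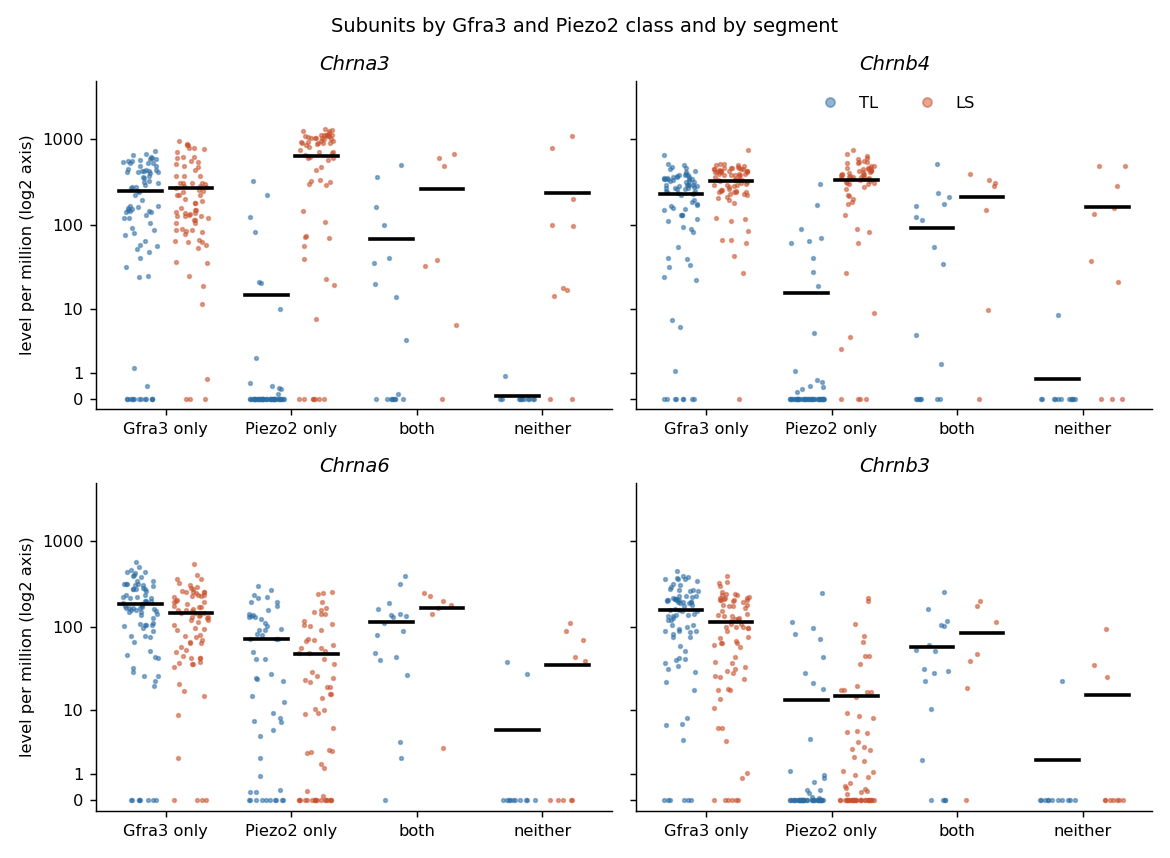
Level (rescaled to 1000000 per neuron) of Chrna3, Chrnb4, Chrna6 and Chrnb3 in neurons with Gfra3 alone, Piezo2 alone, both or neither at 10 or more, on a log2(level + 1) axis. Points are neurons (TL blue, LS orange) and black bars are means. The TL Piezo2 neurons lie mostly at 0 for Chrna3 and Chrnb4, where the LS Piezo2 neurons have means of 644 and 337. Chrna6 and Chrnb3 differ more between Gfra3 and Piezo2 neurons than between segments.

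For Chrna3, Gfra3 and Piezo2 neurons came in opposite orders in the 2 segments. On each of plates 2 to 6, TL Gfra3 neurons had a higher mean than TL Piezo2 neurons, for example 276 against 0.170 on plate 6. LS Gfra3 neurons had a lower mean than LS Piezo2 neurons on the same plates, for example 189 against 871 on plate 4. The log2 ratio of Gfra3 over Piezo2 neurons was 3.98 in TL and -1.25 in LS. For Chrnb4 it was 3.79 in TL and -0.05 in LS.

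Within Piezo2 neurons, 5 of the 10 members were called higher in LS, where 4.56% of 16221 genes were, and 0 of 10 higher in TL, where 2.40% of genes were. These were Chrna3 (log2 ratio 5.35), Chrnb4 (4.34), Chrna5 (1.28), Chrm4 (1.19) and Chrna4 (1.09). The last 3 were called at low means, 1.63 against 0.0823 for Chrna5, 6.86 against 2.44 for Chrm4 and 1.95 against 0.386 for Chrna4. Without the 44 neurons with Hpse, a gene the study used to mark an LS subtype, Chrna3 and Chrnb4 were called, Chrna5 and Chrm4 were not, and Chrna4 had a log2 ratio of -0.01. Chrm2 was the member furthest in the other direction, with means of 5.88 in LS and 13.6 in TL Piezo2 neurons and a log2 ratio of -1.09, but it was level on plate 3 (14.4 and 14.2). Within Gfra3 neurons none of the 8 members with a mean of at least 1 was called higher in LS or in TL, where 2.04% and 1.79% of 16286 genes were. Chrm2 had means of 15.5 in LS and 8.80 in TL Gfra3 neurons, at 10 or more in 64.5% (52.7% to 75.1%) and 34.1% (24.0% to 45.5%).

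**Figure D3:**
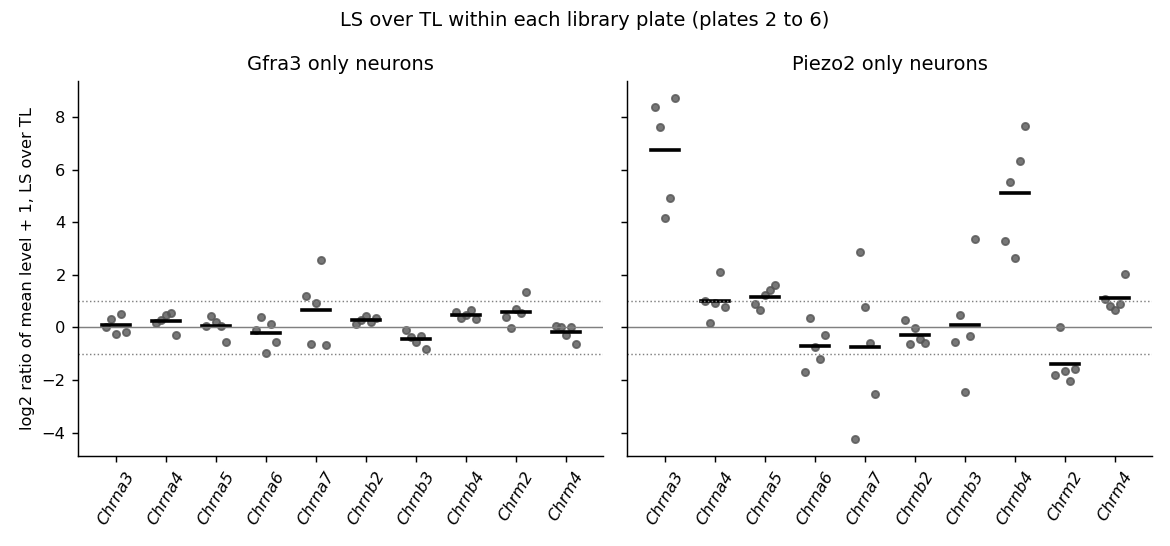
Log2 ratio of mean level + 1, LS over TL, in Gfra3 (left) and Piezo2 neurons (right). Each point is 1 library plate (plates 2 to 6), black bars are the mean of the 5 plate ratios and dotted lines mark a 2-fold difference. In Piezo2 neurons Chrna3 lies between 4.17 and 8.71 and Chrnb4 between 2.64 and 7.67, while in Gfra3 neurons Chrna3 lies between -0.24 and 0.52.

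Chrna6 and Chrnb3 had higher means in Gfra3 than in Piezo2 neurons of both segments. Chrnb3 averaged 157 in TL Gfra3 and 13.4 in TL Piezo2 neurons, and 114.5 in LS Gfra3 and 14.9 in LS Piezo2 neurons. It was at 10 or more in 87.8%, 16.4%, 85.5% and 21.5% of them. Chrna6 averaged 184, 72.1, 146 and 48.1 in the same order, and was at 10 or more in 90.2%, 61.8%, 92.1% and 56.9%. Among LS Piezo2 neurons, Chrna6 averaged 21.8 in the 42 with Hpse and 96.1 in the 23 without it, present in 40.5% and 87.0%. Chrnb3 averaged 8.89 and 26.0 in these 2 sets. Within Gfra3 neurons the TL mean of Chrnb3 was above the LS mean on all 5 plates, with a log2 ratio of LS over TL of -0.45. For a call between classes a gene had to differ at least 2-fold in the same direction in both segments. Chrnb3 (log2 ratio 3.18 over both segments) and Chrna6 (1.47) were the 2 members called higher in Gfra3 neurons, where 2.14% of 16336 genes were. Chrna7 (log2 ratio -2.0) was the 1 member called higher in Piezo2 neurons, where 2.89% of genes were. That call rested on few neurons, since Chrna7 was at 10 or more in 13 of 55 TL and 5 of 65 LS Piezo2 neurons. In Gfra3 neurons Chrna7 was at 10 or more in 2 of 82 TL and 12 of 76 LS neurons. In LS the share was thus higher in Gfra3 (15.8%) than in Piezo2 neurons (7.69%), against the direction of the call. The highest TL Piezo2 neuron had a Chrna7 level of 567, beside a median of 1.99. The call was lost without plate 3. Chrnb2 averaged 38.3 in TL Piezo2 neurons and between 20.8 and 29.1 in the other 3 sets.

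The muscarinic genes had different places among LS neurons. Chrm2 was at 10 or more in 49 of 76 LS Gfra3 neurons and in 13 of 65 LS Piezo2 neurons (20.0%, 11.1% to 31.8%). Chrm4 was at 10 or more in 7 of 76 (9.21%, 3.78% to 18.1%) and 20 of 65 (30.8%, 19.9% to 43.5%). Both Piezo2 shares differed with Hpse. Among LS Piezo2 neurons, Chrm2 was present in 1 of 42 with Hpse and in 12 of 23 without it (52.2%). Chrm4 was present in 18 of 42 and in 2 of 23 (8.70%), so LS Piezo2 neurons without Hpse were near the LS Gfra3 neurons for both genes. In TL neurons Chrm2 averaged 8.80 in Gfra3 and 13.6 in Piezo2 neurons, and Chrm4 4.31 and 2.44. Both genes were at 10 or more in 3 LS neurons, which was 4.41% of the 68 with Chrm2 and 10.7% of the 28 with Chrm4. In TL neurons both were present in 8, which was 11.9% of the 67 with Chrm2 and 47.1% of the 17 with Chrm4. Chrm4 was the shallowest of these readouts, with a median of 25 reads in the neurons that had it at 10 or more. Its counted length of 1440 bases was a single coding exon.

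The neighbouring genes Chrna3 and Chrnb4, and Chrna6 and Chrnb3, were largely found in the same neurons. Of the 223 neurons with Chrna3 at 10 or more, 217 had Chrnb4 (97.3%), and these were 92.7% of the 234 with Chrnb4. Of the 183 neurons with Chrnb3, 176 had Chrna6 (96.2%), and these were 72.4% of the 243 with Chrna6, so Chrnb3 marked a subset of the Chrna6 neurons. Across neurons the log2 levels of Chrna3 and Chrnb4 had a Pearson r of 0.89 in TL (n = 167) and 0.81 in LS (n = 158), where the points of a pair share a neuron, its depth and its plate. For Chrna6 and Chrnb3 r was 0.67 and 0.69. Chrnb3 and Chrnb4, on different chromosomes, had an r of 0.81 in TL and 0.29 in LS. Chrnb2 was found in 203 of the 223 Chrna3 neurons (91.0%), near its share of all 325 neurons (87.4%). Its r with Chrna3 over all neurons was 0.16. Chrna5, beside Chrna3, had an r of 0.49 with Chrna3 in each segment. The pairs were not tied to each other in the same way in both segments, since Chrna3 and Chrnb3 had an r of 0.76 in TL and 0.16 in LS. All 6 neurons with Chrna4 at 10 or more also had Chrnb2, Chrna3 and Chrnb4. Of these 6, 5 were LS Piezo2 neurons with Hpse, 4 of them on plate 5. In that set of 42 neurons Chrnb2, Chrna3 and Chrnb4 were each at 10 or more in 40.

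The balance within the alpha3 and beta4 pair differed between classes of LS neurons. In the 56 LS Piezo2 neurons with both genes, the median Chrna3 level was 1.89 times the Chrnb4 level, and Chrna3 was the higher in 45. In the 71 LS Gfra3 neurons with both, the median ratio was 0.643 and Chrna3 was the higher in 22. The 66 TL Gfra3 neurons had a median ratio of 1.16. The quartiles of the log2 ratio, 0.46 and 1.28 in LS Piezo2 against -1.57 and 0.20 in LS Gfra3 neurons, did not overlap.

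**Figure D4:**
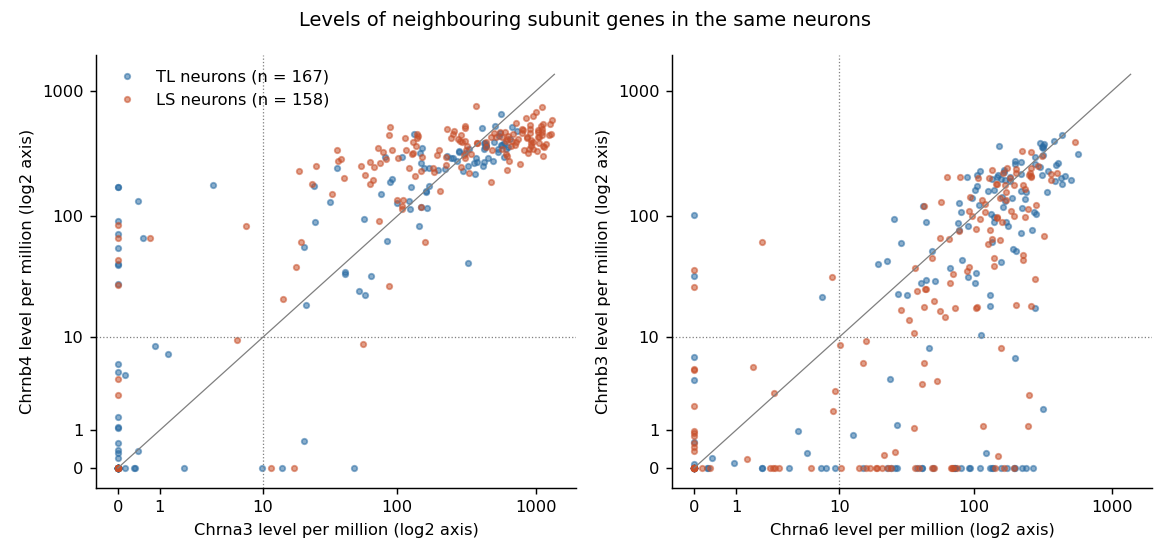
Chrnb4 against Chrna3 (left) and Chrnb3 against Chrna6 (right) in each TL (blue) and LS (orange) neuron, as level (rescaled to 1000000 per neuron) on log2(level + 1) axes. The grey line is equality and dotted lines are a level of 10. Neurons with Chrna3 nearly always have Chrnb4 (217 of 223), with Chrna3 spread over a wider range, while many neurons with Chrna6 have Chrnb3 at 0.

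Counting nicotinic genes at 10 or more, 135 neurons had 5, 48 had 4, 46 had 3, 48 had 2, 26 had 1 and 6 had 0, all 6 of them TL. In 16 neurons 6 were present. The most frequent set was Chrna3, Chrna6, Chrnb2, Chrnb3 and Chrnb4 together, in 125 neurons (60 TL, 65 LS). It was held by 56 of 82 TL Gfra3 neurons (68.3%) and 47 of 76 LS Gfra3 neurons (61.8%). Among TL Piezo2 neurons the leading sets were Chrna6 with Chrnb2 (18 of 55) and Chrnb2 alone (12 of 55). Among LS Piezo2 neurons the leading set was Chrna3, Chrnb2 and Chrnb4 (20 of 65). These are transcripts in 1 cell, and the assembled receptors were not measured.

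The neurons were also grouped by 7 genes that the study used as subtype markers: Cbln2, Fam19a1, Hpse, Mrgprd, Ntm, Smr2 and Trpa1. The study chose these markers on neurons of this table, after leaving out some for satellite glia transcripts, and those neurons are kept here. In 56 neurons more than 1 marker was at 10 or more. Hpse and Ntm were at 10 or more in 44 and 48 neurons, all LS. Hpse neurons had the highest mean of Chrna3, 757 ± 406 (SD over neurons), present in 41 of 44, and the highest of Chrnb4, 369 ± 175. They also had the highest Chrm4, 8.56, present in 18 of 44, and nearly no Chrm2, 0.741, present in 1 of 44. Of the 65 LS Piezo2 neurons, 42 had Hpse, with a mean Chrna3 of 793, and the 23 without it had a mean of 373. Ntm neurons had Chrna3 at 241 and Chrnb4 at 334, with Chrm2 at 15.1 in place of Chrm4 at 4.18.

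The highest Chrna7 levels were in Smr2 neurons. It averaged 135 ± 151 in the 24 neurons with Smr2 and was at 10 or more in 18 of them (75.0%, 53.3% to 90.2%), against 3.13 and 32 of 301 (10.6%) in all other neurons. The 12 neurons with Chrna7 at 100 or more all had Smr2. In the 17 TL Smr2 neurons Chrna7 ranged from 0 to 567 with a mean of 99.9, and in the 7 LS ones from 62.2 to 531 with a mean of 221. Smr2 neurons were spread over the classes, with 10 of the 24 in the class with neither Gfra3 nor Piezo2. Chrm2 was at 10 or more in 16 of the 24 Smr2 neurons, with a mean of 21.8, and in 28 of the 40 Fam19a1 neurons, with a mean of 21.7.

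Trpa1 neurons, the largest set with 170, led for Chrna6 (mean 173) and Chrnb3 (mean 129.8). Neurons with Mrgprd, which marks non-peptidergic nociceptors, had Chrna6 at 108 and the highest mean of Chrnb2, 52.9 ± 27.2 in 17 neurons. Cbln2 neurons kept Chrna6 (76.1) with nearly no Chrnb3 (0.382), Chrnb4 (1.85) or Chrm2 (0.905). In the 12 TL Cbln2 neurons Chrna3 and Chrnb4 were at 0 in each.

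**Figure D5:**
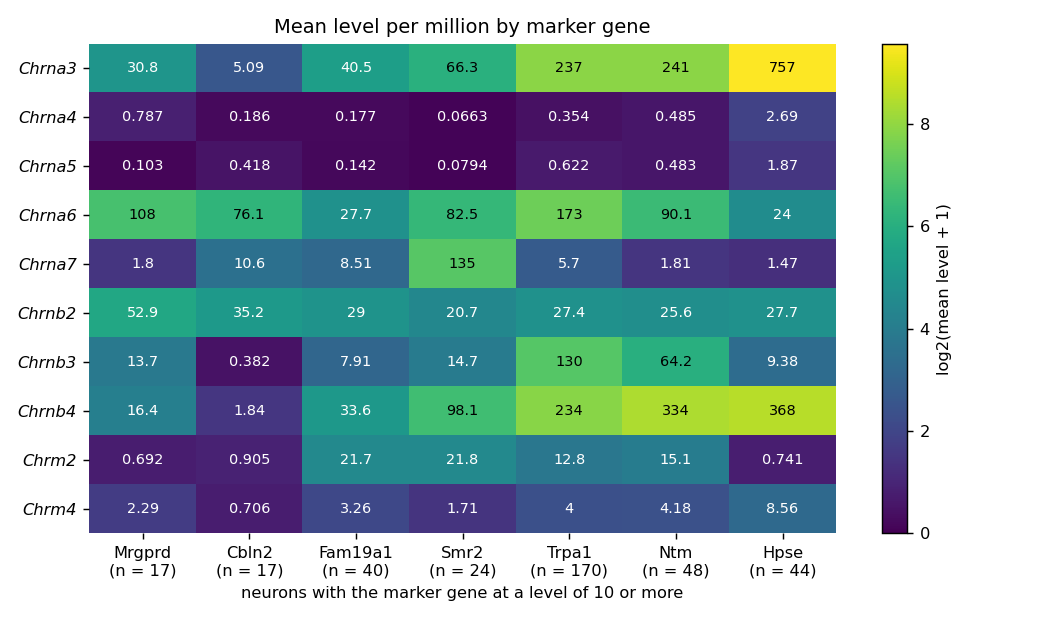
Mean level (rescaled to 1000000 per neuron) of each receptor gene (rows) in neurons with each marker gene at 10 or more (columns, with the number of neurons). Colour is log2(mean level + 1) and the numbers are mean levels. Chrna3 and Chrnb4 are highest in Hpse neurons (757 and 369), Chrna7 in Smr2 neurons (135) and Chrnb2 in Mrgprd neurons (52.9).

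Other receptor genes of the family were scarce. Of 8 other nicotinic subunit genes, those of muscle and of hair cells among them, 1 reached 10 in 5% of neurons: Chrnb1, the muscle beta subunit, in 17 of 325. Of the other muscarinic genes (Chrm1, Chrm3 and Chrm5), none did. Too few had a mean of at least 1 for their calls to be read: 0 of the 3 muscarinic genes and 1 or 2 of the 8 nicotinic genes in each of the 4 comparisons.

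Of 9 genes for making, storing and breaking down acetylcholine, 5 reached that level. Chat, the synthesising enzyme, and Slc18a3, the vesicular transporter, were at 10 or more in 0 of 325 neurons, with the same upper limits as for Chrna5 (0.923% and 1.13%). Slc5a7, the high-affinity choline transporter, was nevertheless at 10 or more in 165 neurons (50.8%), with means of 27.6 in TL Gfra3 and 4.98 in TL Piezo2 neurons and of 16.6 and 18.8 in LS. The choline transporters of the Slc44 family were widespread, Slc44a1 in 289 and Slc44a2 in 302 neurons. Ache, which encodes acetylcholinesterase, had a mean level of 274, close to that of Chrna3. It was called higher in LS within Piezo2 neurons (476 against 225, log2 ratio 1.07), and in Gfra3 neurons the means were 282 in LS and 158 in TL. Bche, the related esterase, was called higher in LS in all neurons (7.42 against 3.21) and within each class. Prima1, the membrane anchor of acetylcholinesterase, was called higher in TL within Gfra3 neurons, at means of 1.85 and 0.307. Chat, Slc18a3 and Prima1, like Lypd6 and Lypd1 below, were named after their values were seen.

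Of 9 chaperones and partners of nicotinic receptors, 7 reached 10 in 5% of neurons, and every call among them lay on the TL or the Piezo2 side. Called higher in TL were 2 of the 9 over all neurons, 1 within Gfra3 and 3 within Piezo2 neurons, and 3 were called higher in Piezo2 than in Gfra3 neurons. All 9 had a mean of at least 1 in these comparisons except within Gfra3 neurons, where 6 had. Over all genes the shares called were 2.07%, 1.79%, 2.40% and 2.89% in the same order. Tmem35a, the endoplasmic reticulum chaperone also known as NACHO, was at 10 or more in 69.5% of TL and 20.3% of LS neurons. Its mean was 49.0 in TL and 8.27 in LS neurons (log2 ratio of LS over TL -2.43), and 90.8 against 9.50 within Piezo2 neurons. Lypd6, with means of 1.63 in TL and 0.195 in LS, was the other partner called higher in TL over all neurons. Ric3, a chaperone of alpha7 assembly, was near even, at 12.8 in TL and 14.7 in LS. Lynx1, a GPI-anchored brake on nicotinic receptors, averaged 121 in Piezo2 and 51.4 in Gfra3 neurons and was called in that direction with Ly6h (5.37 and 0.0836) and Lypd1 (2.88 and 0.0919). Ly6e averaged 21.4 in TL and 29.1 in LS neurons, Lypd6b 5.02 and 1.75, and Rapsn, the clustering protein of the muscle receptor, 11.2 and 7.26.

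Signalling partners of the Gi-coupled receptors were broad. Gnao1 was at 10 or more in all 325 neurons, with a mean of 142, Gnai2 in 323, Gnai3 in 313 and Gnai1 in 311. Of the G protein-gated potassium channels, Kcnj3 was at 10 or more in 37 neurons and the other 3 were below 5%. Rgs4, which shortens Gi and Gq signals, averaged 764 and was called higher in TL within Piezo2 neurons (1419 against 598), the 1 call in this list of 9, of which 6 had a mean of at least 1 there and where 2.40% of all genes were called.

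The genes whose log2 level followed each member most closely were taken from 10283 genes at 10 or more in at least 10% of neurons, by the mean of Pearson r within TL and within LS neurons. For Chrna3 they were Chrnb4 (mean r 0.85), Cartpt (0.69) and Olfm2 (0.67), and for Chrnb4 they were Chrna3 (0.85), Olfm2 (0.69) and Bex1 (0.69). For Chrna6 they were Gpr35 (0.76), Ctsl (0.70) and Chrnb3 (0.68). Chrnb3 was followed by Trpv1 (0.76), the capsaicin receptor, and Gal (0.74), which encodes galanin, among others. The 3 leading genes of Chrnb2 (Abhd16a, Npdc1 and Reep2, 0.69 each) were themselves at 10 or more in 92.6% to 99.7% of neurons, and those of Chrm2 were Scg2 (0.65), Nrp2 (0.62) and Ppp3ca (0.61). The neurons of a segment share their plates and differ in depth, so these values are descriptions.

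Marker lists were measured for the cell types that picking could have carried along. The 10 sensory neuron genes were all present, with Tubb3 and Prph at 10 or more in all 325 neurons. Of 6 genes of autonomic neurons, which also use Chrna3 and Chrnb4, 0 reached 10 in any neuron, Hand2 was at 0 in all and the summed level of the list was at most 7.48. All 9 satellite glia genes were found, and their summed level ran from 50.7 to 98956 (median 2594) in TL and from 6.83 to 61187 (median 1499) in LS neurons. The median was 2465 in TL and 179.7 in LS Gfra3 neurons, and 2412 in TL and 2048 in LS Piezo2 neurons. Without the 25% of neurons highest in this sum, the mean of Chrna3 was 164 in TL and 422 in LS neurons, and that of Chrnb4 was 155 and 315. In the neurons highest in the sum, Chrna3 averaged 61.8 in 48 TL and 419.6 in 33 LS neurons. The summed level of 4 myelinating Schwann cell genes also moved with the segments, with medians of 1464 in TL and 523 in LS Piezo2 neurons and of 818 and 332 in Gfra3 neurons. That of 5 fibroblast genes had medians of 42.6 in TL and 193 in LS Gfra3 neurons and of 2.02 and 0.993 in Piezo2 neurons. That of 8 macrophage genes had medians of 46.9 and 72.4 in Gfra3 and of 4.70 and 28.4 in Piezo2 neurons. That of 6 endothelial genes had a median of at most 2.43 in each of these sets. Its highest value was 21669, in a TL Piezo2 neuron, and at most 23.0 in the other sets. Recovered depth ran from 416007 to 12058968 reads per neuron, with medians of 2555740 and 2831677 reads in TL Gfra3 and Piezo2 neurons and of 3091710 and 3244816 reads in LS Gfra3 and Piezo2 neurons. The part of RNA from these cell types and of depth in the differences above was not tested.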

How the data were processed

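Single neurons picked by hand were sequenced by Smart-seq2 as 75-base reads (per the labels and the study's methods). Per the labels' processing notes the authors used bcl2fastq 2.15.0.4, STAR 2.4.1 and featureCounts 1.4.4 with GRCm38.p3. The deposited table holds log2(x + 1) values, where x is a read count scaled by gene length and by a factor of each neuron. From these values whole reads were recovered: 65.3% of values above 0 were whole multiples with exon lengths of GENCODE M21 (relative tolerance 1e-07), and 100% once 8712 of 34769 lengths had been found from the values. x was rescaled to 1000000 per neuron. Recovered reads per neuron ran from 416007 to 12058968 (median 2867071), and 1 rRNA gene took 0.303% to 35.8% of the rescaled level. All columns of the table were matched to samples by title, and 0 were left over.

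Group means of the level were compared as log2 ratios after adding 1, for genes with a mean of at least 1 in either group. Between segments a call needed a 2-fold difference in the same direction on every plate with at least 3 neurons of each segment, and between Gfra3 and Piezo2 neurons a 2-fold difference in both segments. No p-value was computed. The call rule between segments was checked, over all neurons, on simulated data with known changes of more than 2-fold and no plate effects. That simulation left out genes with low means, and the calls within and between Gfra3 and Piezo2 neurons were not checked in this way. All 10 receptor genes are named, as are genes of the related lists at 10 or more in 5% of neurons and up to 3 genes most like each member, of which 1 is not reported here. Members and lists were chosen with earlier results of these data known. Alternatives changed the pseudocount, floor, scaling, length scaling, neurons, plates, averaging and class limits. Python 3.11.15, numpy 2.4.6, pandas 2.3.3, scipy 1.17.1 and matplotlib 3.10.9 were used.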

Additional observations from a re-analysis of the deposited data

Results flagged for a closer look

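For Chrna3, the log2 ratio of Gfra3 over Piezo2 neurons was 3.98 in TL neurons, between 2.21 and 7.94 on the 5 plates with both segments, and -1.25 in LS neurons, between -2.19 and -0.40. The sign was opposite in TL and LS on every plate, and the difference between segments was not tested because the labels name no animal. Chrnb4, which pairs with Chrna3 in ganglionic receptors, averaged 230.1 in Gfra3 and 15.7 in Piezo2 neurons of TL, and 326 and 337 in those of LS. Of the 20 sets of 5 plate means (10 genes, 2 segments), 2 stood apart, both of Chrna7. The rule sets about 1 in 20 apart by chance where plate means are normally distributed. TL neurons of plate 2 had a mean Chrna7 level of 29.7, against 4.55 to 10.6 on the other 4 plates, and LS neurons of plate 3 had a mean of 39.3, against 3.32 to 12.5. Plate 2 held the TL neuron with the highest Chrna7 level (567) and plate 3 the LS neuron with the highest (531). The part of these single neurons in the plate means was not tested.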

How the results depend on the processing

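Chrna3 and Chrnb4 were called higher in LS than TL neurons under all 15 alternatives, over all neurons, and under all 18 within Piezo2 neurons, with log2 ratios from 1.36 to 3.60 and 1.02 to 3.47, and from 4.56 to 7.16 and 3.91 to 6.48. Chrna6 and Chrnb3 were called higher in Gfra3 neurons under all 17 alternatives, which did not include leaving out the Hpse neurons. The changes of floor could not alter any of these calls, since the higher mean of each gene was above 10. Leaving out 1 of plates 2 to 6 also took that plate out of the call rule between segments. Other calls moved. With a pseudocount of 0.1, 4 members in place of 2 were called higher in LS over all neurons (Chrna4 and Chrna5 added), and 2 in place of 1 higher in Piezo2 neurons (Chrna4 added). The Chrna7 call was lost (0 members) without rescaling, with the mean of log2(level + 1) and without plate 3, a range of 0 to 1 over plates left out. With that log2 mean, 2 members (Chrnb4 and Chrm2) were called higher in LS within Gfra3 neurons, in place of 0. Within Piezo2 neurons the 5 members called higher in LS became 2 with a floor of 10, which tests fewer genes, 3 without rescaling, 3 with the log2 mean, 3 without the 25% of neurons highest in satellite glia genes and 2 without Hpse neurons, where the log2 ratio of Chrna4 was -0.01. They became 4 with Gfra3 and Piezo2 at 20 or without plate 5 (Chrna4 lost) and without plate 6 (Chrm4 lost), so Chrna4 was called in 12, Chrm4 in 14 and Chrna5 in 16 of 19 settings. Leaving out the neurons highest in glia genes and the Hpse neurons was chosen after seeing the data. Chrm2 (1 member in place of 0) was called higher in TL within Piezo2 neurons with CPM of recovered reads, without neurons beyond 3 MAD and with Gfra3 and Piezo2 at 5, and in 0 to 1 cases with a plate left out (plate 3). Beyond the floor, the cause of these moves was not tested. Co-detection at a level of 1 or 5 stayed within the counting intervals.

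Of 670 log2 ratios of members under an alternative, 643 stayed within 1 SD of the ratios by plate or segment, and of 220 shares of neurons 166 stayed within their counting interval. Over all genes the calls depended more on the setting: over all neurons 418 were higher in LS (169 with a floor of 10, 695 with a pseudocount of 0.1) and 335 in TL (151 with the log2 mean, 617 without rescaling). The 350 higher in Gfra3 neurons ranged from 185 to 861 and the 472 higher in Piezo2 neurons from 286 to 858. Within Gfra3 neurons 333 (130 to 552) were higher in LS and 292 (106 to 575) in TL, and within Piezo2 neurons 739 (352 to 1026) and 390 (205 to 590). Without rescaling, the share of calls on the first side went from 55.5% to 36.3%, 42.6% to 72.5%, 53.3% to 34.6% and 65.5% to 46% in these comparisons, with a median log2 ratio of all genes of -0.09, 0.40, -0.15 and -0.08 in place of 0.05, 0.00, 0.05 and 0.05. No test, paired or not, was made because the labels name no animal. The plates enter through the call rule, which compares LS with TL within each plate. Thinning to 400000 reads with presence at 4 reads changes both depth and the rule for presence: the share fell for Chrm4 (to 4.79% of TL and 9.49% of LS neurons) and rose for Chrm2 (to 49.7% and 55.7%) and Chrna4 (to 2.40% and 8.23%).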
